A study of Mus musculus with 6 samples.

Results

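The cytosolic ribosomal protein genes encode the protein components of the 2 subunits of the ribosome that translates nuclear messenger RNA. Members were chosen by symbol: Rpl, Rps or Rplp followed by a number and at most 1 letter, with a probe well above background on all 6 arrays. Kinases of the Rps6k family and mitochondrial ribosomal proteins (Mrpl, Mrps) do not match. The choice gave 77 genes of 18206 tested, 47 of the large and 30 of the small subunit, read by 107 of the 111 probes whose symbols match.

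The arrays compared primary megakaryocytes, the platelet-forming cells, cultured from C57BL/6 mouse fetal livers at E13.5. The group labelled p45-/- lacks p45, the product of Nfe2 and a subunit of NF-E2, a transcription factor of the megakaryocyte lineage, and the WT group is wild type; each has 3 arrays, and the design text states independent experiments. The source label names cultured megakaryocytes, whereas the extraction protocol speaks of whole embryos, a contradiction that the labels do not settle. The labels name no agent added to the cultures and give no sorting step. Without a stated sorting step, fewer cells of a type and less RNA per cell cannot be told apart. Levels are log2 processed signal minus the array's 75th percentile, and every difference is a log2 difference, p45-/- minus WT. With 3 arrays a group, precision is limited by their number.

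Ribosomal proteins are made in nearly equal amounts and assembled on ribosomal RNA in the nucleolus, with help from assembly factors that leave before the subunit works. Their messenger RNAs are among the most abundant of a cell, and most start with a C followed by a run of pyrimidines (C or T in DNA), the 5′ terminal oligopyrimidine tract through which mTOR signalling controls their translation. Inherited loss of 1 copy of many of these genes causes Diamond-Blackfan anaemia, in which red cell formation fails, and loss of RPS14 contributes to the anaemia of the 5q deletion syndrome, in which megakaryocytes are abnormal.

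The start sites of 8 members are shown because the pyrimidine run is the sequence feature by which this gene family is known. All 8 were taken from the members with a run, and 29 members with a matched start region had none. Each line gives the 30 bases around the annotated start from RefSeq (GRCm38.p6), 5′ to 3′ on the gene's strand, with the pyrimidine run in capitals. The start base is not marked, and the runs begin at offsets from -8 (Rpl14) to 1 (Rpl18) from it. The letters therefore do not show that a transcript begins with the run. The windows lie at chr7:45718056-45718085 (+) for Rpl18, chr4:86857353-86857382 (-) for Rps6, chr7:141447636-141447665 (+) for Rplp2, chr17:27635230-27635259 (-) for Rps10, chr16:33056467-33056496 (+) for Rpl35a, chr2:39005117-39005146 (-) for Rpl35, chr9:120571502-120571531 (+) for Rpl14 and chr11:114668565-114668594 (+) for Rpl38.
Rpl18: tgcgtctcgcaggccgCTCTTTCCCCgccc
Rps6: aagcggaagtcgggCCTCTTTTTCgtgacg
Rplp2: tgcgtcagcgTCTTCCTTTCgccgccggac
Rps10: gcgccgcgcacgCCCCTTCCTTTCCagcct
Rpl35a: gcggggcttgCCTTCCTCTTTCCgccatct
Rpl35: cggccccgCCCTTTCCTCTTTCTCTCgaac
Rpl14: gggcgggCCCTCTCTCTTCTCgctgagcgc
Rpl38: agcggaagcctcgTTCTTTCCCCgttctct

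Start regions from 250 bases before to 50 bases after the start were matched for 57 of the 77 members. A run of at least 8 pyrimidines on the sense strand, reaching within 10 bases of the start, was found in 28 of the 57, or 49.1%, against 15.8% of all 27025 genes in the table. The ETS core CCGGAAG, searched on both strands, was in 24 members (42.1%) against 9.93% of all genes. The letters GCTGAGTCA, from the core that NF-E2 binds, searched on both strands, were in the windows of 0 of the 57 members and 0.503% of all genes. The shorter TGAGTCA, which lies inside it, was in 2 members (Rpl22 and Rpl9), or 3.51%, against 5.95% of all genes. TATAAA, searched on both strands, was in 6 members (10.5%) against 15.7%. These are matches of letters in a short window. Members with the pyrimidine run had a median difference of -0.09 (9 of 28 higher) and those without it -0.05 (8 of 29 higher).

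No ribosomal protein gene passed the test between the arrays labelled p45-/- and WT. With limma and Benjamini-Hochberg adjustment over all genes tested, 0 of 77 members and 0 of 18206 genes (0.0%) had an adjusted p under 0.05, and the smallest adjusted p among members was 0.704. At an unadjusted p under 0.05 limma called 0 members, against 5.95% of all genes. With the replicate number as a block limma called 5 genes (0.0275%) and 0 members, and at an unadjusted p under 0.05 it called 0 members against 20.3% of all genes.

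The differences were small. All 77 lay within 0.5 of 0, against 59.7% of all genes, and the largest corresponded to 1.34-fold. All genes are an unlike background: every member had to be well above background on all 6 arrays, and 15630 of the 18206 genes were. The members were also brighter, with a median level on WT array 1 of 7.27 against -0.34. Shares of members and of all genes, also those by unadjusted p and within replicate numbers, were not compared at like probe signal. All 78 mitochondrial ribosomal protein genes and all 48 translation initiation factors tested also lay within 0.5. The 95% interval reached a 2-fold change or beyond for 15 of the 77, against 80.0% of all genes, and stayed within 2-fold either way for the other 62. The median difference was -0.06 (quartiles -0.17 and 0.02), against -0.05 (-0.33 and 0.52) over all genes. The group mean was higher in p45-/- for 21 members (27.3%), against 46.4% of all genes. The sign of the members' median depends on the scaling: after quantile normalization it was 0.13 with 61 members higher, and with normexp background correction -0.29 with 3 higher. Scaling each array to its median moved all genes to -0.56 and the members to -0.57. Every p45-/- array lay below every WT array for 7 members (9.09%), against 8.43% of all genes, and above for 0 members, against 4.77%.

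**Figure D1:**
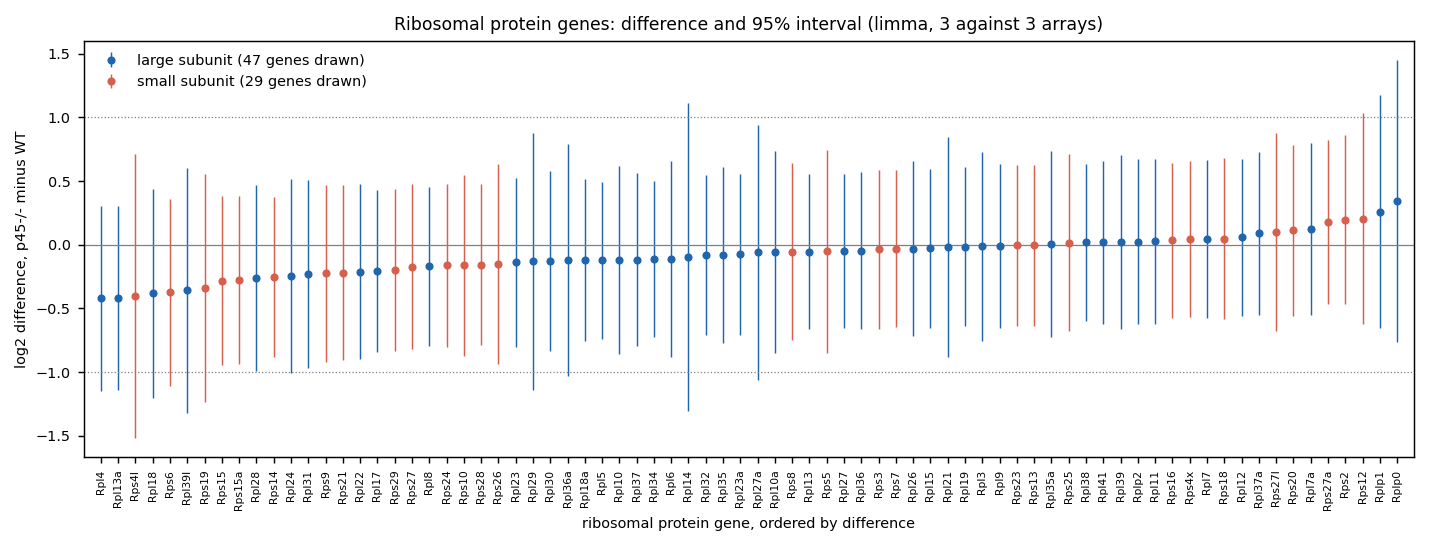
Log2 difference (p45-/- minus WT) of 76 of the 77 ribosomal protein genes on the y axis, ordered along the x axis, with bars for limma's 95% interval from 3 against 3 arrays; colours mark the subunit and dotted lines a 2-fold change. All points lie between -0.42 and 0.34, and every interval includes 0.

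The members also varied little from array to array. Their SD over all 6 arrays had a median of 0.192, against 0.520 over all genes, and within the WT group 0.131 against 0.339. Among genes of like probe signal the gap was smaller: 0.139 for members and 0.283 for other genes at a mean level of 7 or above, and 0.281 for members below 7 against 0.422 for other genes between 4 and 7. Within the p45-/- group the median SD was 0.241 against 0.560. Rpl13 and Rpl27 of the large subunit and Rps16 and Rps4x of the small subunit were among the 5 steadiest. Rps4x, the small-subunit protein encoded on the X chromosome, read 7.67, 7.79 and 7.68 in p45-/- and 7.62, 7.71 and 7.68 in WT. All 6 values of Rps4x overlap in a narrow band. Rps16 read 8.50, 8.57 and 8.46 in p45-/- and 8.51, 8.46 and 8.45 in WT, again with overlapping groups.

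Replicate 1 of p45-/- stood apart. The 75th percentile of probe signal was 135 there and 339 to 589 on the other arrays. On that array the members' median deviation from their own means was -0.23, and on the other 5 it was at most 0.09 from 0. All genes tested had a median deviation of -0.31 on that array (quartiles -0.69 and 0.82), further from 0 than the members. Replicate 3 of both groups shared a slide and the other 4 arrays another, so slide and replicate number cannot be told apart for that pair.

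**Figure D2:**
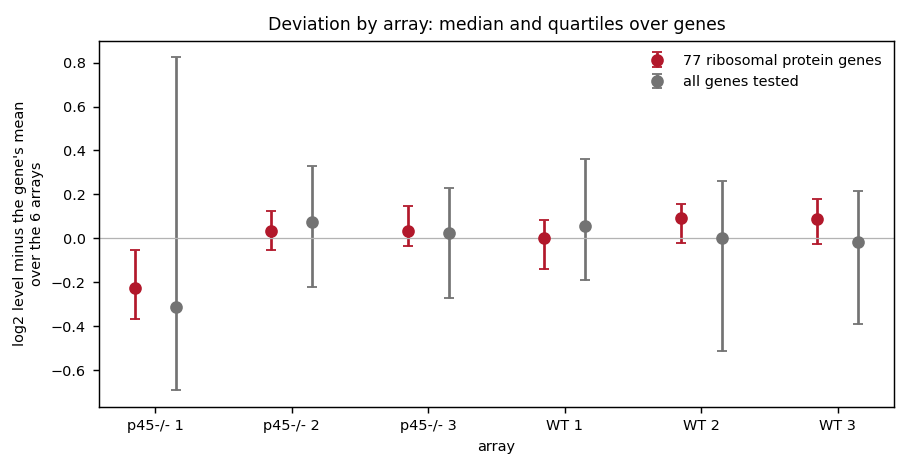
Deviation of log2 level from each gene's mean over the 6 arrays (y axis) by array (x axis), as median and quartiles over the 77 ribosomal protein genes (red) and all genes tested (grey). The members' quartiles are narrower than those of all genes on every array, and their lowest median is on p45-/- array 1.

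The difference was also taken within each replicate number, though the labels state no pairing. The members' median was -0.16, -0.04 and -0.03 for numbers 1, 2 and 3, against -0.37, 0.12 and 0.06 for all genes. Within number 3, 70 of 77 members differed by less than 0.2, against 40.2% of all genes; within numbers 1 and 2 there were 37 and 43, against 9.93% and 27.6%. The exception furthest from 0 within number 3 was Rpl39l, at 0.66, a dim paralogue described below. A total of 28 members were lower in all 3 numbers (36.4%, against 23.6% of all genes) and 4 were higher in all 3 (5.19%, against 23.3%).

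In the large subunit, 12 of 47 genes were higher in the p45-/- mean, with a median of -0.08. Rpl4, which reaches into the exit tunnel of the ribosome, had the lowest difference. It read 3.33, 3.28 and 3.84 in p45-/- and 3.73, 4.14 and 3.83 in WT. The groups overlapped through array 3, and the difference was -0.42 (SE 0.30, adjusted p 0.704). Rpl13a, known for a second role in repressing translation of inflammatory messages, read 6.41, 6.94 and 7.08 in p45-/- and 7.12, 7.24 and 7.33 in WT. All 3 p45-/- values of Rpl13a were below all 3 WT values, with a difference of -0.42 (SE 0.30, adjusted p 0.704) and an interval that includes 0. Rpl18 read 5.42, 5.67 and 6.35 in p45-/- and 5.99, 6.23 and 6.36 in WT, a difference of -0.38 (SE 0.34). Array 3 of p45-/- reached the WT range there. Rpl17 and Rpl34 completed the large-subunit genes without overlap, at -0.21 and -0.11.

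The stalk proteins, which recruit elongation factors to the large subunit, included the highest differences. Rplp0, the base of the stalk, read 9.81, 8.92 and 8.34 in p45-/- and 9.19, 8.40 and 8.44 in WT. Array 1 was the highest of its group in both, array 3 of p45-/- was the lowest of all, and the groups overlapped. The difference of the brighter Rplp0 probe was 0.34 (SE 0.46, adjusted p 0.80). Rplp1 read 9.58, 9.03 and 8.52 in p45-/- and 9.19, 8.58 and 8.57 in WT. It was again highest on array 1 of each group, with overlap and a difference of 0.26 (SE 0.38). Array 1 also had the lowest 75th percentile of probe signal in each group, and that percentile is subtracted from every level. It was 135, 407 and 589 in p45-/- and 339, 583 and 575 in WT. The part of this scaling in the stalk differences was not tested. The third stalk protein, Rplp2, differed by 0.02 (SE 0.27). Within number 3 the differences of Rplp0, Rplp1 and Rplp2 were -0.10, -0.05 and -0.02. The second probe of Rplp0 differed by 0.18 within number 3. Rpl5 and Rpl11, which with 5S RNA bind the p53 regulator Mdm2 when assembly is disturbed, differed by -0.12 (SE 0.26) and 0.03 (SE 0.27).

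In the small subunit, 9 of 30 genes were higher in the p45-/- mean, with a median of -0.05. Rps6, the substrate of the S6 kinases, read 5.56, 5.61 and 6.14 in p45-/- and 5.91, 6.17 and 6.34 in WT. The groups overlapped through array 3 of p45-/-, and the difference was -0.37 (SE 0.31, adjusted p 0.72). Rps12 read 9.07, 8.49 and 8.19 in p45-/- and 8.71, 8.23 and 8.21 in WT, with overlap and a difference of 0.20 (SE 0.35). Rps2 and Rps27a, the latter made as a fusion with ubiquitin, differed by 0.20 and 0.18. Rps14, Rps15a, Rps27 and Rps29 had no overlap, at -0.25, -0.27, -0.17 and -0.20. For Rps14 the arrays read 8.09, 8.30 and 8.38 in p45-/- and 8.58, 8.52 and 8.43 in WT, so the nearest values of the groups were close.

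The 21 genes of Diamond-Blackfan anaemia and the 5q deletion had a median of -0.15, with 3 of 21 higher and 0 called. The 77 members, which include them, had a median of -0.06 with 27.3% higher, against 46.4% of all genes. All p45-/- arrays lay below all WT arrays for 4 of the 21, against 9.09% of the 77 members and 8.43% of all genes. After quantile normalization the median was 0.08, with 16 higher. Rps19, the gene most often mutated in that anaemia, read 2.67, 2.19 and 3.29 in p45-/- and 2.82, 2.98 and 3.36 in WT. The lowest array was p45-/- 2, the groups overlapped, and the difference was -0.34 (SE 0.37, adjusted p 0.77). Others of the list differed by -0.23 (Rpl31), -0.16 (Rps24), -0.16 (Rps10), -0.16 (Rps28), -0.15 (Rps26), -0.08 (Rpl35), -0.03 (Rps7), 0.00 (Rpl35a) and 0.11 (Rps20).

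Related copies included 2 of the 5 members with the largest SD over the arrays, Rps4l and Rpl39l, beside Rpl14, Rpl29 and Rplp0. Rps4l, annotated as a transcribed pseudogene, read 2.81, 4.25 and 3.92 in p45-/- and 3.64, 4.50 and 4.06 in WT, with overlap and a difference of -0.40 (SE 0.47). Rpl39l, known from the male germ line, read -2.04, -1.57 and -1.19 in p45-/- and -1.09, -0.79 and -1.85 in WT, with a difference of -0.36 (SE 0.40). Rps27l, a p53 target, differed by 0.10 (SE 0.33). Over the 6 paralogues tested the median was -0.24, with 1 higher. The mouse genome holds many processed copies of these genes, so a probe can also bind transcripts of a near-identical copy, and each value is uncertain in that respect. Of the symbols that match the name rule, Rpl3l stayed out because its probe was well above background on only 3 arrays.

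Different probes of the same gene gave similar differences for most genes, but not for all. For the 24 members with at least 2 probes, the highest and lowest difference lay a median of 0.050 apart, and 15 genes stayed under 0.1. Rpl24 had the closest probes, at -0.25 for both. The 4 probes of Rpl29 differed by -0.21 to -0.13 and shared a profile. The brightest read 6.43, 5.07 and 6.06 in p45-/- and 5.86, 5.81 and 6.28 in WT, with array 2 of p45-/- the lowest. The widest spreads were in Rpl21 (-0.39 and -0.02) and Rps18 (-0.25 and 0.05), followed by Rpl22, Rpl34 and Rpl7a. In Rps18, Rpl22, Rpl7a, Rpl23 and Rpl7 the highest and lowest probe had opposite signs. Both probes of Rplp0 were higher in p45-/-, at 0.34 and 0.17.

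**Figure D3:**
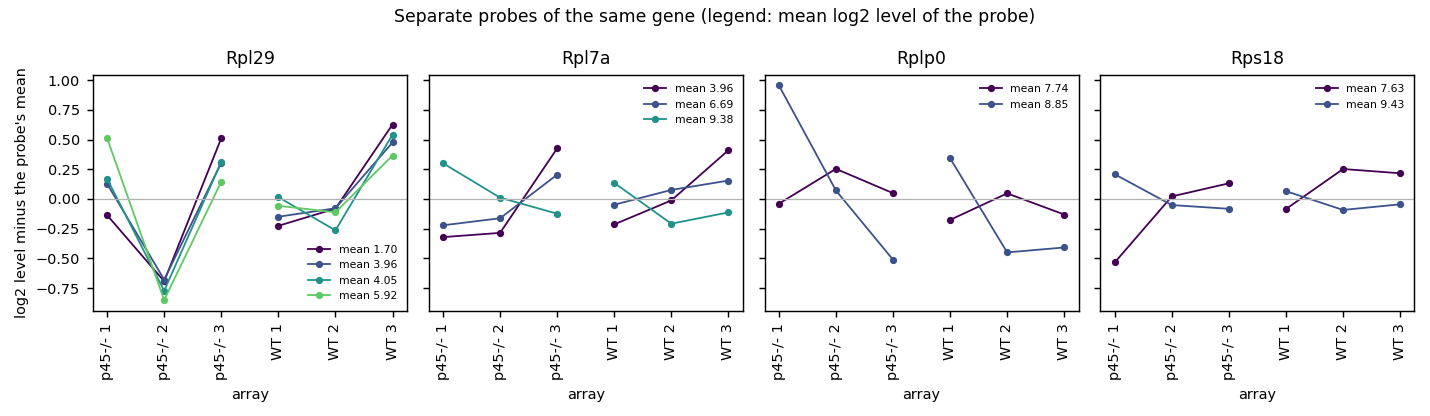
Log2 level minus the probe's own mean (y axis) by array (x axis), 1 line per probe, for Rpl29 (4 probes), Rpl7a (3), Rplp0 (2) and Rps18 (2). The Rpl29 probes share a low value on p45-/- array 2, while the 2 probes of Rps18 part on p45-/- array 1.

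The members' differences varied with probe signal. Across the 77 genes, which share arrays and are not independent, the mean level correlated with the difference within number 2 at r = 0.69 (rho 0.68), within number 1 at 0.24 (0.38) and within number 3 at -0.20 (0.06). The 33 members with a mean level below 7 had a median of -0.13, with 3 higher. The 44 above it had a median of -0.02, with 18 higher. Other genes showed the same order: -0.29 for the 1379 between 4 and 7, and -0.10 for the 107 above. The part of probe signal in the members' differences was not tested. The limit of 7 was chosen after seeing the data.

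**Figure D4:**
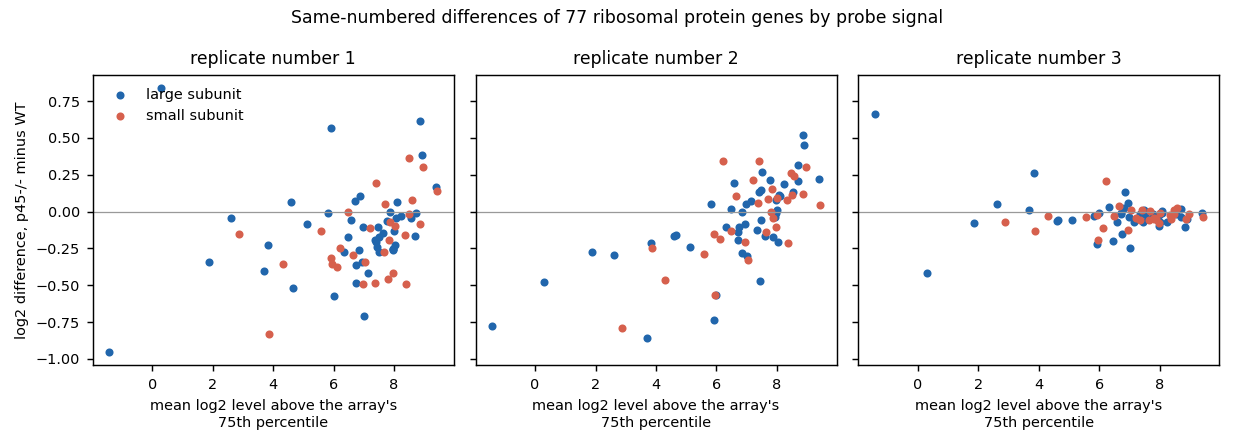
Log2 difference within each replicate number (y axis, p45-/- minus WT) against mean log2 level above the array's 75th percentile (x axis) for the 77 ribosomal protein genes, coloured by subunit. Brighter members lie higher within number 2, and within number 3 most lie within 0.2 of 0.

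Genes that work with the ribosomal proteins were described from lists, with 0 genes called in any of them. Translation initiation factors had a median of -0.10 (13 of 48 higher), elongation and termination factors -0.07 (5 of 14) and mitochondrial ribosomal proteins -0.08 (24 of 78). After quantile normalization these medians were 0.19, 0.17 and 0.16. Within numbers 1, 2 and 3 they were -0.45, 0.05 and 0.09 for initiation factors and -0.56, 0.07 and 0.20 for mitochondrial ribosomal proteins. For elongation and termination factors they were -0.28, -0.03 and 0.04. Nucleolar ribosome biogenesis genes, the assembly factors, had a median of 0.12, with 53 of 82 higher (46.4% of all genes) and 10 with every p45-/- array above every WT array (4.77% of all genes); the median was -0.02 with normexp and -0.39 with median scaling. Their median was -0.18, 0.19 and 0.36 within numbers 1, 2 and 3. Among these biogenesis genes Tsr2, a chaperone of Rps26, read -2.84, -2.34 and -2.34 in p45-/- and -3.01, -3.21 and -3.30 in WT. Its groups did not overlap, and the difference was 0.67 (SE 0.29). Regulators of ribosomal protein synthesis had a median of -0.23, with 2 of 23 higher (46.4% of all genes). Their median was -0.17 with 9 higher after quantile normalization, and -0.34 with 6 higher with normexp. Within numbers 1, 2 and 3 it was -0.60, -0.12 and -0.0035. The machinery of RNA polymerases I and III, which make ribosomal RNA and transfer RNA, had a median of -0.04 (13 of 34 higher), which was 0.06 (19 higher) after quantile normalization. The polymerase median was -0.47, 0.13 and 0.17 within numbers 1, 2 and 3. The p53 genes that respond to disturbed ribosome assembly had a median of 0.11 (10 of 17 higher), which was -0.07 with normexp. Within numbers 1, 2 and 3 their median was -0.56, 0.50 and 0.24. Myc, a transcription factor that drives ribosome production, read 1.88, 1.15 and 1.77 in p45-/- and 2.36, 2.20 and 2.16 in WT, all lower, with a difference of -0.64 (SE 0.31). Mxd1, an antagonist of Myc, differed by -1.73 (SE 0.43, adjusted p 0.505).

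Cell type markers had larger differences than the ribosomal protein genes, with 0 called in the fit without the block. With the replicate block limma called 2 megakaryocyte markers, the platelet receptor genes Gp6 (-6.09, adjusted p 0.0166) and Clec1b (-4.53, adjusted p 0.0452). The labels do not state the pairing that this block assumes. All 19 megakaryocyte markers were well above background on all 6 arrays, with a median of -0.58 (16 lower). Of 24 erythroid markers 22 were higher, with a median of 1.71. Only 20 of the 24 were well above background on all 6 arrays. The rest passed the filter through 1 group alone, which favours the group where they are high. The median was 0.92 for hepatocyte markers (15 of 16 higher) and 0.56 for stromal markers (13 of 15). Within numbers 1, 2 and 3 the hepatocyte medians were -0.32, 1.41 and 1.78, and the stromal medians -0.74, 1.14 and 1.53. Both lists were thus lower within number 1. Lymphoid markers had a median of 0.58 (4 of 6 higher) and endothelial markers 0.07 (4 of 8). For neutrophil and monocyte markers it was -0.14 (5 of 20), and for mast cell and basophil markers -0.94 (3 of 9). Here too some markers passed the filter through 1 group alone. Well above background on all 6 arrays were 4 of 6 lymphoid, 6 of 9 mast cell and basophil, 13 of 15 stromal and 7 of 8 endothelial markers. After quantile normalization the lymphoid, endothelial and neutrophil and monocyte medians turned sign, to -0.04, -0.16 and 0.02. With normexp the mast cell and basophil median was -0.0069 (4 of 9 higher). With median scaling the endothelial median was -0.44, the stromal 0.05 and the lymphoid 0.07. The log2 summed level of the erythroid list was 11.13, 10.12 and 9.08 in p45-/- and 9.74, 9.18 and 8.70 in WT, and that of the 77 members 13.86, 13.89 and 13.79 against 13.88, 13.82 and 13.83. The part of the samples' cell makeup in the members' values was not tested. The Nfe2 probe differed by -0.17 (SE 0.57); its position relative to the deleted sequence is not given in the sources used here, so it does not check the labels.

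**Figure D5:**
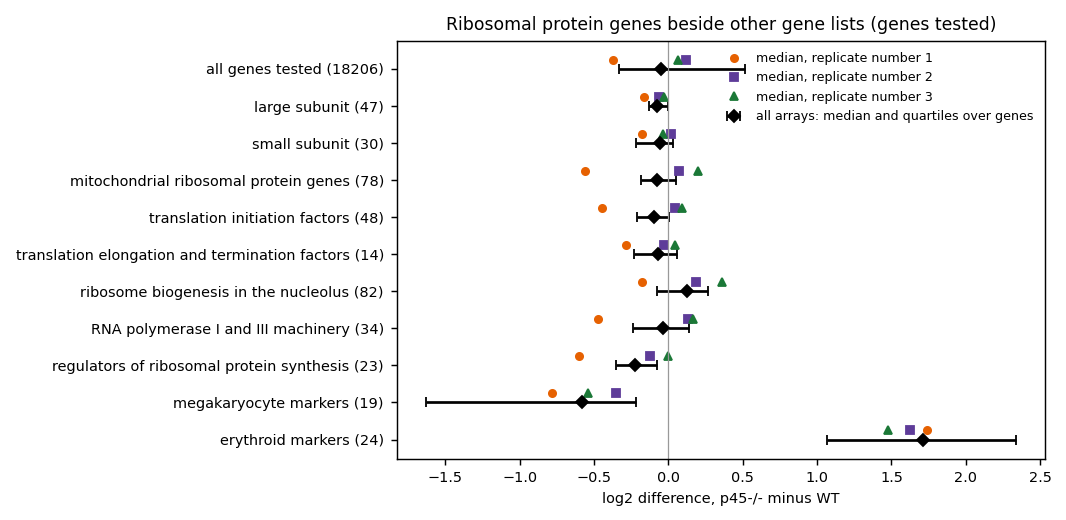
Log2 difference (x axis, p45-/- minus WT) for gene lists (y axis, number of genes tested in parentheses): diamonds with bars are the median and quartiles over genes, and coloured symbols the median within each replicate number. Both subunits lie near 0 with short bars, megakaryocyte markers lie at -0.58 and erythroid markers at 1.71.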

How the data were processed

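Total RNA from 6 samples was amplified, labelled with Cy3 and hybridised to single-colour Agilent arrays, per the labels' protocols. Per the file headers, the deposited intensity of a spot (processed signal, linear) came from Agilent Feature Extraction 10.7.3.1; the submitters' processing notes name 10.1. The authors' value table holds the same intensities, linear and uncentred, with column medians of 20.9 to 42.0; it differed by at most 0.497%, from rounding.

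Control spots were left out, 32 to 80 outlier spots an array were treated as missing, and replicate spots were averaged; no spot was saturated. Each array's 75th percentile was subtracted from log2 intensity. Probes had to be well above background throughout 1 group or both, and the brightest such probe stood for its gene. A RefSeq table (GRCm38.p6, names only) gave symbols for 26690 of 41174 probes. limma 3.58.1 (R 4.3.3) compared the groups in a two-sided test with 4 residual degrees of freedom, Benjamini-Hochberg adjustment and a threshold of 0.05. The fit was also run on simulated data with independent noise at the WT SD in both groups. That setting lacks the wider p45-/- spread, so it does not show how many changes are missed here. An exact permutation test of 3 against 3 has a smallest p of 0.1.

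Deviations from the group means correlated between arrays of the same number at 0.647 (number 1), 0.588 (number 2) and 0.271 (number 3). The numbers were treated as pairs, but the labels state no pairing and these values do not bear it out for number 3. There p45-/- replicate 3 correlated at 0.616 with WT replicate 2. Deviations from a group mean sum to 0, so these correlations are not independent of one another. The replicate block and the differences within a number assume this pairing.

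Tried as alternatives were a block for the replicate number or the slide, slide 2 alone, normexp on median spot and background signals (offset 50), quantile normalization, median scaling, the value table, other filters and probe rules, array weights and leaving out arrays. The members and lists were chosen with earlier results of these data known. Members were named if their groups did not overlap, if they were among the 5 highest or lowest, had the widest probe spread or the largest or smallest SD, or were stalk, anaemia or paralogue genes; up to 3 genes of other lists were named by smallest p. Some are given only within counts, and some values are not reported here.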

Additional observations from a re-analysis of the deposited data

How the results depend on the processing

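In all 20 alternatives limma called 0 ribosomal protein genes; with array weights 1 had an unadjusted p under 0.05. The number higher in p45-/- (21) became 3 with normexp, 61 with quantile normalization, 0 with median scaling, 34 with array weights and 34 without both replicate 1 arrays, with the replicate block too (the last chosen after seeing the data). Leaving out 1 array gave 17 to 38, the highest without p45-/- replicate 1. The members' median (-0.06) became -0.29 with normexp, 0.13 with quantile normalization and -0.57 with median scaling, and ran from -0.15 to -0.0059 with 1 array left out. The median of all genes (-0.05) was -0.56 with median scaling, which moved members and all genes alike, and 0.30 without the filter on dim probes, which tests more genes; with normexp it was 0.08. The count over all genes (0) became 5 with the replicate block, 10 with median scaling, 513 with array weights, 18 without both replicate 1 arrays (0 with the replicate block added) and 0 to 1 with 1 array left out (1 without WT replicate 1). The array weights are estimated gene after gene and depend on the order of the genes: reversing the order gave 504 calls, 0 members called and 32 members higher. With all 6 arrays the block changed no member's call. Of 45 named members 37 changed sign under at least 1 alternative, 37 also with median scaling not counted, and 0 crossed the threshold. Where no other reason is given, the cause was not tested.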
